A study of Mus musculus with 8 samples.

Results

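The 33 genes described here take glucose into the heart muscle cell, break it down to pyruvate and lactate, pass pyruvate to the mitochondrion, and store glucose as glycogen or release it. They were chosen by name as the glucose transporters, the glycolytic enzymes with their main isozymes, the lactate genes, the pyruvate dehydrogenase genes and the glycogen enzymes. Their rows were found by NCBI Gene number, and all 33 were listed among the 18215 gene numbers of the study. Polyadenylated RNA of whole mouse heart was sequenced from mice labelled Carns transgenic (TG) and wild type (WT), in 4 libraries each, and the labels give no treatment beside the transgene. Carns1 is the gene of carnosine synthase, the enzyme that makes carnosine from beta-alanine and histidine. The labels give neither the promoter of the transgene nor the strain, age or sex of the mice. They do not say whether each library is a separate animal. The p-values below therefore set group differences against the spread between these libraries, which need not be the spread between animals.

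Glucose enters cardiomyocytes through facilitative transporters and is trapped as glucose 6-phosphate by hexokinase, from where it goes to glycolysis, to glycogen or to side branches. Several steps are run by isozymes of separate genes, a muscle form and forms named for brain, liver or platelets or found in many tissues, which differ in their regulation. The adult heart lives mainly on fatty acids and lactate, and it turns to glucose and glycogen under insulin, high workload or low oxygen.

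Levels between genes are given as FPKM, the deposited fragments per kilobase of gene and per 1000000 fragments. Comparisons of TG with WT use counts per 1000000 after TMM scaling of the libraries (CPM) and edgeR's quasi-likelihood test, with Benjamini-Hochberg adjustment over all 12670 genes tested and a threshold of 0.05. Total counts lay between 6261193 and 7897629 per library, where 3 counts equal 0.380 to 0.479 CPM, a floor that covers counting error only. The transgene's own transcript, Carns1, ranged from 19071 to 24288 CPM in the TG libraries against 44.5 to 73.3 CPM in the WT libraries, so no library went against its label. Cardiomyocyte markers were present throughout, with a summed level of 11 markers between 83774 and 98790 CPM. TG replicate 2 also held transcripts of fat: the brown fat gene Ucp1 stood at 124 CPM there and at most 0.391 CPM in the other libraries. The libraries also fell into 4 deeper ones (TG 1 and 3, WT 1 and 2) and 4 shallower ones (TG 2 and 4, WT 3 and 4), and 32.2% of all genes differed between these depth classes, each of which holds 2 libraries of each group.

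No gene of the pathway differed between TG and WT past the threshold. In 2 of 9 isozyme families the balance of the forms separated the libraries, but neither passed after adjustment. Both had an exact permutation p of 0.029 and an adjusted p of 0.129 (two-sided). That p of 0.029 is also the share of the 70 regroupings of the libraries that separate as fully within a family. Of the 33 members 32 passed the filter on low counts. Of these 0 passed the threshold in edgeR, where 0.0158% of all genes did (0.00789% higher and 0.00789% lower in TG). The 1 gene higher in TG was Carns1 itself, and with the Carns1 counts left out 0 genes passed. DESeq2 also called 0 of the 32, against 0.118% of all genes. An unadjusted DESeq2 p under 0.05 was found for 4 members, beside 2.72% of all genes. The one added was Pfkfb3, whose high value in TG replicate 2 is given with the PFKFB genes. An unadjusted edgeR p under 0.05 was found for 3 of the 32, beside 3.49% of all genes: Pfkl was higher in TG (1.53% of all genes), and Pfkfb1 and Pygb were lower (1.96%). The same 3 genes did not overlap between the groups in FPKM, beside 1.1% of all genes higher and 1.74% lower in TG. The median log2 fold change of the 32 was 0.01, with 18 above 0, beside a median of -0.00 and 49.5% above 0 over all genes tested. Standard errors of the log2 fold changes lay between 0.10 and 0.31, and the smallest adjusted p among the members was 0.99955. The brain form took a smaller share of glycogen phosphorylase in each of the 4 TG libraries than in any WT one, and the liver form a larger share of phosphofructokinase.

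**Figure D1:**
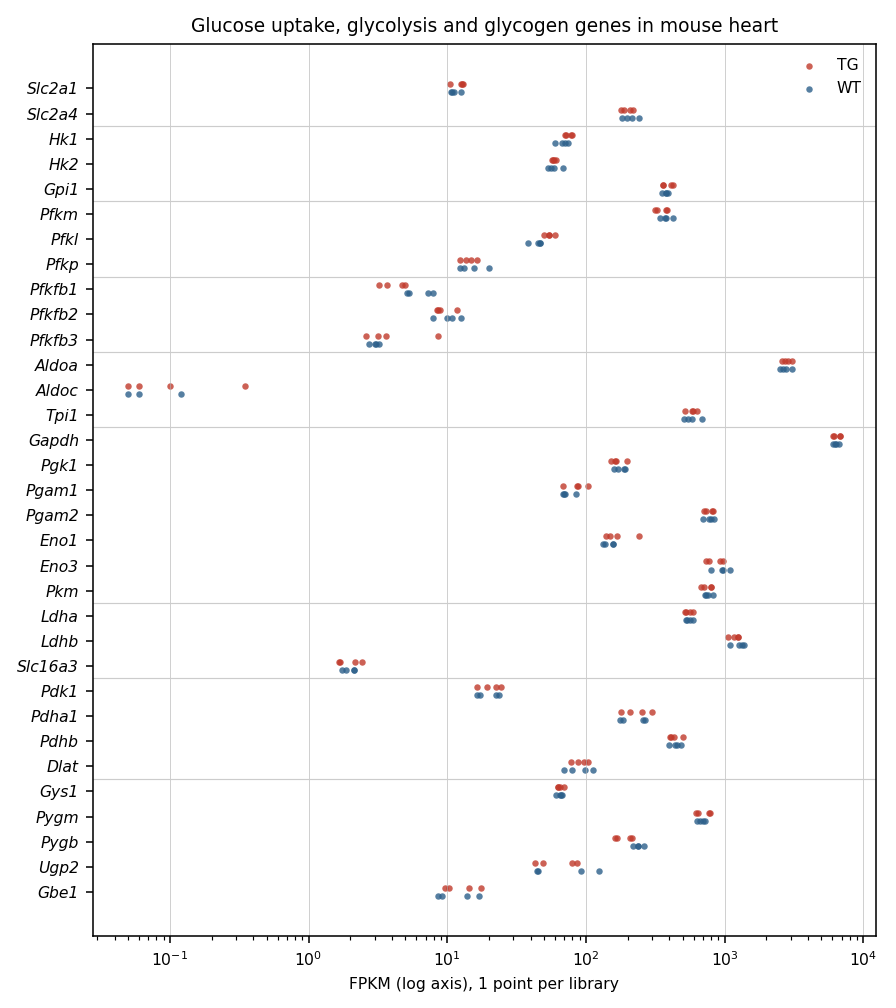
Level of each of the 33 genes in FPKM on a log axis, with 1 point per library (red TG, blue WT) and lines between the roles. The levels run from Gapdh, at 6019 FPKM or more in every library, to Aldoc, at 0.35 or less. Aldoc was not listed in WT replicate 2 and has no point there. The groups are separated in Pfkl, Pfkfb1 and Pygb.

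Among the 9 isozyme families the share of the glycogen phosphorylase forms was separated by the widest gap relative to its spread. Glycogen phosphorylase releases glucose 1-phosphate from glycogen, and it comes in a muscle form (Pygm, NCBI Gene 19309), a brain form (Pygb, NCBI Gene 110078) and a liver form (Pygl). Pygb stood at 208, 169, 217 and 163 FPKM in TG replicates 1 to 4 and at 264, 238, 218 and 238 FPKM in WT replicates 1 to 4. The lowest WT library lay just above the highest TG library, so the groups did not overlap in FPKM, as in 2.83% of all genes, while they did overlap in TMM-scaled CPM. In CPM, WT replicate 3 lay just below TG replicates 1 and 3. The mean CPM was 746 ± 126 in TG against 935 ± 86 in WT (SD, n = 4 each), a log2 fold change of -0.32 (SE 0.13, edgeR, unadjusted p = 0.027, adjusted p = 0.99955). Leaving out any single library kept it between -0.41 and -0.25.

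Pygm was the more abundant form, with 787, 623, 773 and 639 FPKM in TG and 717, 705, 628 and 663 FPKM in WT. Its groups overlapped widely, and its log2 fold change was 0.07 (SE 0.12, edgeR, unadjusted p = 0.583). The TG libraries with much Pygm, replicates 1 and 3, were also those with much Pygb.

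The share of each form within a library does not depend on how libraries are scaled against each other. Pygb made up 20.9%, 21.3%, 21.9% and 20.4% of the FPKM of Pygm and Pygb together in TG replicates 1 to 4. In WT replicates 1 to 4 it made up 26.9%, 25.3%, 25.7% and 26.4%. Every TG value lay below every WT value, and the gap between the groups was wider than the range within either. The share of Pygm was accordingly 78.9% ± 0.6 in TG against 73.9% ± 0.7 in WT (SD, n = 4 each), 4.95 percentage points higher in TG. The two-sided exact permutation test gave p = 0.029, the smallest that 4 against 4 libraries allow, and 0.129 after Benjamini-Hochberg adjustment over the 9 isozyme families tested, which does not pass. For any family to pass, at least 6 of the 9 would have to reach that smallest p. Deeper libraries alone gave a difference of 4.66 points and shallower ones 5.25, and it lay between 4.69 and 5.22 points when any single library was left out. The gene lengths behind FPKM, 2887 bases for Pygm and 3860 for Pygb, were the same in all 8 libraries. With Pygl counted in the family, an alternative chosen after the data were seen, the Pygm share was 78.5% ± 0.8 and 73.8% ± 0.7.

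**Figure D2:**
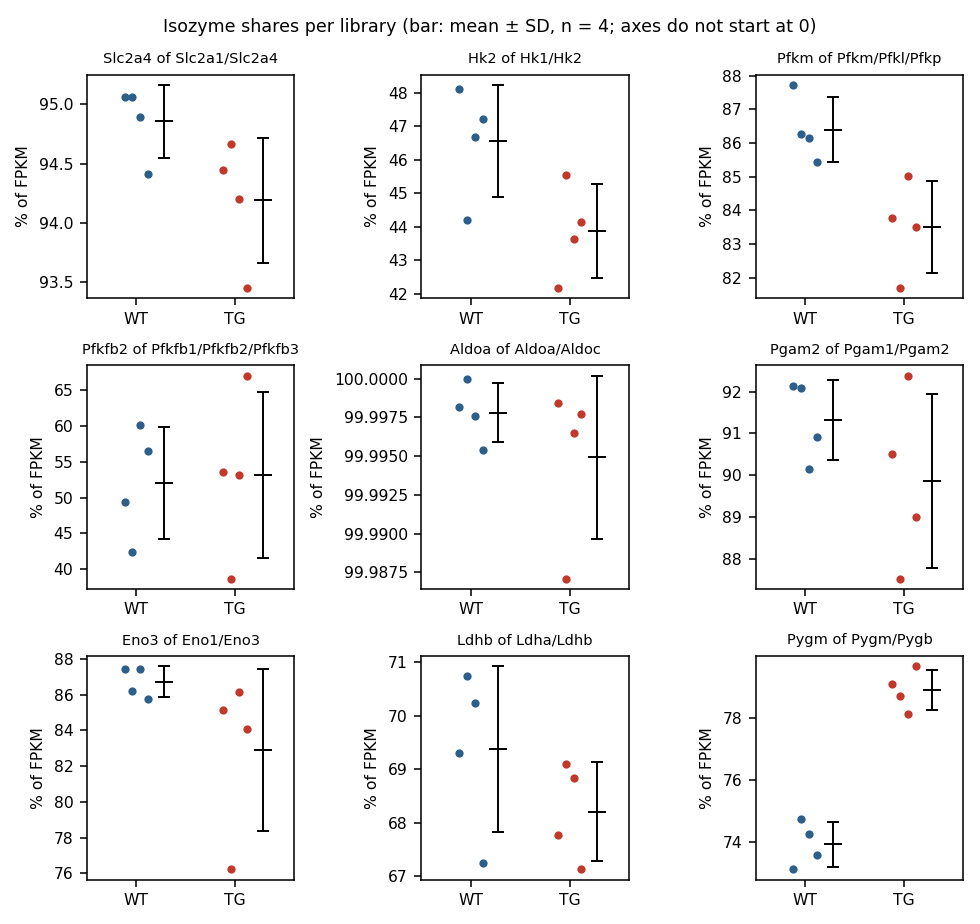
Share of the named isozyme in the summed FPKM of its family, in percent, for 9 families, with 1 point per library and the mean ± SD of each group (n = 4). The axes do not start at 0. Pygm lies between 78.1% and 79.6% in TG, against 73.1% and 74.7% in WT, Pfkm is also separated, and the points of the other 7 families overlap.

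The other 3 glycogen members overlapped between the groups. Gys1, muscle glycogen synthase, had the same mean in both groups, at 65.1 ± 3.3 FPKM in TG and 65.1 ± 3.0 FPKM in WT. Ugp2, which makes the UDP-glucose used by the synthase, stood at 64.5 ± 21.9 and 76.9 ± 39.4 FPKM, and Gbe1, the branching enzyme, at 12.9 ± 3.6 and 12.1 ± 4.0 FPKM (SD, n = 4 each). The wide spread of Ugp2 and Gbe1 followed the depth classes, as described further on.

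Phosphofructokinase, the committed step of glycolysis, also comes in muscle (Pfkm), liver (Pfkl, NCBI Gene 18641) and platelet (Pfkp) forms, which join into tetramers. Pfkl stood at 60.3, 54.1, 54.6 and 49.7 FPKM in TG replicates 1 to 4 and at 46.9, 46.5, 44.8 and 38.0 FPKM in WT. All TG libraries lay above all WT libraries in FPKM, and TG replicate 4 and WT replicate 2 overlapped in CPM. The CPM was 209 ± 22 in TG against 167 ± 21 in WT (SD, n = 4 each), a log2 fold change of 0.32 (SE 0.12, edgeR, unadjusted p = 0.018, adjusted p = 0.99955). Deeper libraries alone gave 0.31, and shallower libraries alone 0.35.

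Pfkm, the main form in heart, stood at 382, 315, 380 and 326 FPKM in TG and at 423, 375, 376 and 341 FPKM in WT, overlapping ranges with a log2 fold change of -0.10 (SE 0.12, edgeR, unadjusted p = 0.435). Pfkp stood lowest of the family, at 14.3 ± 1.7 FPKM in TG against 15.3 ± 3.5 in WT. Pfkl therefore made up 13.2%, 14.0%, 12.2% and 12.7% of the family in TG and 9.72%, 10.7%, 10.3% and 9.53% in WT, with no overlap. The Pfkm share was 83.5% ± 1.4 in TG against 86.4% ± 1.0 in WT (SD, n = 4 each), 2.90 points lower in TG (TG minus WT -2.90), with a two-sided exact permutation p of 0.029 and 0.129 after adjustment over 9 families. Leaving out any single library kept the difference between -3.41 and -2.30 points, without overlap in all 8 cases.

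Promoter windows are shown for Pygm, Pygb and Pfkl, from the 2 families whose balance within a library separated the groups. Those of Pfkm and Pfkp are not shown. The windows come from RefSeq on GRCm38.p6, from 250 bases before to 50 after the annotated start, 5′ to 3′ along the gene's strand. Capitals mark ACGTG, the core of the hypoxia response element, and GGGCGG, the GC box of Sp factors, on either strand.
Pygm chr19:6384158-6384457 (+): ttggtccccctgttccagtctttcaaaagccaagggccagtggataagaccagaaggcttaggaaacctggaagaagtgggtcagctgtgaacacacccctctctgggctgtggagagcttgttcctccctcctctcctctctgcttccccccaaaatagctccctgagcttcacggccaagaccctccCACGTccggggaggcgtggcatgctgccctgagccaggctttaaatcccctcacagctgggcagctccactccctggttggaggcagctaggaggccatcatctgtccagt
Pygb chr2:150786546-150786845 (+): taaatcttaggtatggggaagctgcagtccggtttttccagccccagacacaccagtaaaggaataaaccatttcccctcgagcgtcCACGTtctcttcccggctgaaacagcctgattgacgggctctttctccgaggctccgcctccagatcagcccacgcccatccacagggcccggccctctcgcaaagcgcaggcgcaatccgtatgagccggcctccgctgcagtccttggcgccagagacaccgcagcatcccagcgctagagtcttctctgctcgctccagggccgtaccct
Pfkl chr10:78009758-78010057 (-): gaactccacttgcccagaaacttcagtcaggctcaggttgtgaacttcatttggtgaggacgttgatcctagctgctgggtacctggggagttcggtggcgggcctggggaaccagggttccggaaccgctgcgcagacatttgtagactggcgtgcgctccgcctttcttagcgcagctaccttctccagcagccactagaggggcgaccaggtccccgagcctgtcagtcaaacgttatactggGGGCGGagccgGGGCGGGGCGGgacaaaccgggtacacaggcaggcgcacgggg
Pygm and Pygb each hold ACGTG once, read as its complement CACGT, and no GGGCGG, while Pfkl holds GGGCGG 3 times and no ACGTG. Of the 33 members 32 have windows in the table and 18 of them (56.3%) hold ACGTG in at least 1 window, beside 21.8% of all 27025 genes in the table. For GGGCGG the shares are 71.9% and 38.2%. The E-box CACGTG, which contains ACGTG, was found in 4 of 32 members (12.5%) and in 8.09% of all genes. The members have more windows per gene than all genes, 51 for 32 members beside 32851 for 27025. Per window the shares are 43.1% of the members' windows and 19.6% of all for ACGTG, 52.9% and 35.7% for GGGCGG, and 7.84% and 7.15% for CACGTG, which is close to equal. The 27025 genes are more than the 12670 tested here, and shares among the tested genes alone were not computed. Whether the members differ in these motifs from other genes with transcript in heart was therefore not tested. A match is a description of letters and not of binding.

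The bifunctional PFKFB enzymes make and remove fructose 2,6-bisphosphate, the strongest activator of phosphofructokinase. Pfkfb1, the liver and muscle gene, stood at 3.68, 4.92, 4.71 and 3.22 FPKM in TG replicates 1 to 4 and at 7.25, 7.94, 5.31 and 5.09 FPKM in WT. The groups did not overlap in FPKM, with the 2 shallower WT libraries close above the TG range, and in CPM WT replicate 4 fell inside it. Its CPM was 7.30 ± 1.49 in TG against 11.3 ± 2.9 in WT (SD, n = 4 each), a log2 fold change of -0.63 (SE 0.22, edgeR, unadjusted p = 0.012, adjusted p = 0.99955), with -0.85 in deeper libraries alone and -0.34 in shallower ones alone.

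Pfkfb2, the heart form that insulin and workload activate by phosphorylation, stood at 8.47, 8.53, 8.93 and 11.8 FPKM in TG and at 10.04, 7.86, 12.6 and 10.8 FPKM in WT, with overlapping groups. Pfkfb3, the inducible form of proliferating and fat cells, stood at 8.61 FPKM in TG replicate 2 and between 2.60 and 3.64 FPKM in the other 7 libraries. Its log2 fold change was 0.59 (SE 0.31, edgeR, unadjusted p = 0.083) with all libraries and 0.07 without TG replicate 2. Among these 3 genes Pfkfb2 held 53.1% ± 11.6 of the FPKM in TG against 52.1% ± 7.8 in WT (SD, n = 4 each; exact permutation p = 0.886).

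**Figure D3:**
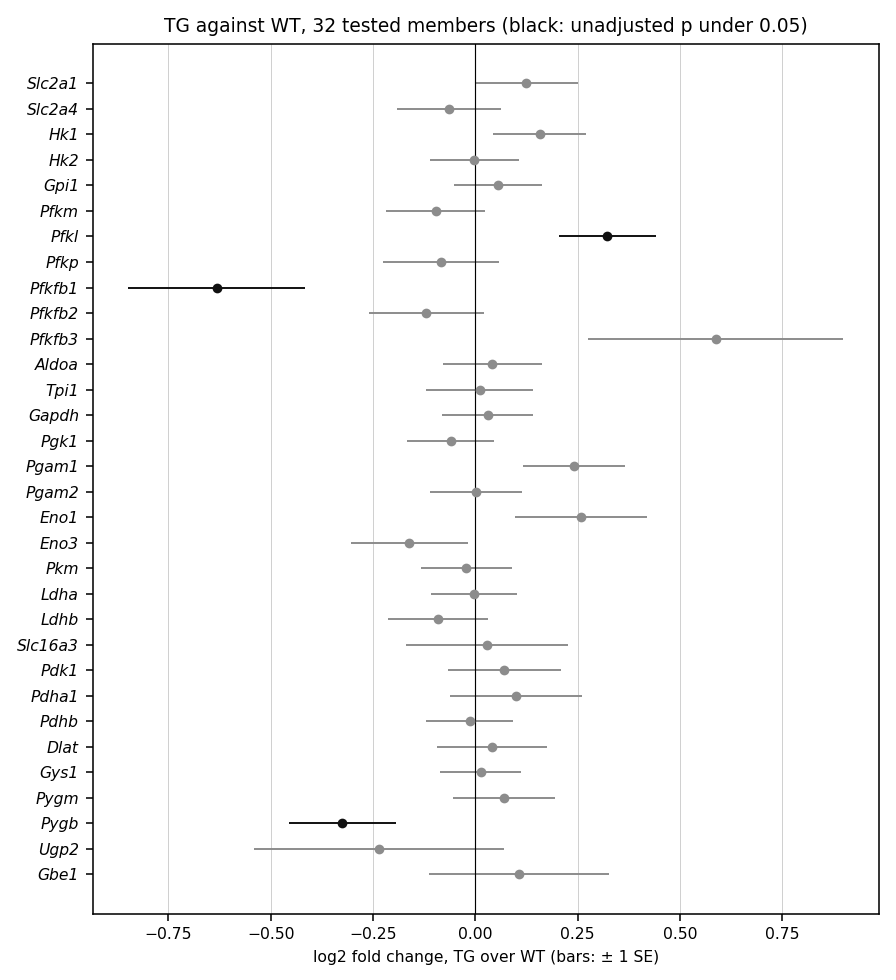
Log2 fold change of TG over WT for the 32 tested genes, with bars of 1 SE from the edgeR fit; black marks an unadjusted p under 0.05. Pfkl at 0.32 lies above 0, and Pygb at -0.32 and Pfkfb1 at -0.63 lie below, while the most abundant genes lie near 0.

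Of the glucose transporter transcripts most was Slc2a4, the insulin-responsive GLUT4, beside Slc2a1, the basal GLUT1. Slc2a4 stood at 220, 187, 208 and 181 FPKM in TG replicates 1 to 4 and at 242, 215, 198 and 183 FPKM in WT. The ranges overlapped almost entirely, with a log2 fold change of -0.06 (SE 0.13, edgeR, unadjusted p = 0.620). Slc2a1 stood at 12.2 ± 1.1 FPKM in TG against 11.3 ± 0.9 in WT, so Slc2a4 held 94.2% ± 0.5 of the pair in TG against 94.9% ± 0.3 in WT (SD, n = 4 each; exact permutation p = 0.086, 0.154 after adjustment).

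At the entry to glycolysis Hk1 and Hk2, the hexokinases bound to mitochondria, were near each other in level. Hk1 stood at 75.2 ± 4.6 FPKM in TG against 67.9 ± 6.2 in WT, and Hk2, the insulin-regulated form, at 58.7 ± 1.6 and 59.3 ± 6.7. The Hk2 share was 43.9% ± 1.4 in TG against 46.6% ± 1.7 in WT (SD, n = 4 each; exact permutation p = 0.057, 0.129 after adjustment), with WT replicate 2 inside the TG range. Gpi1, the isomerase that follows, stood at 421, 360, 411 and 361 FPKM in TG and at 393, 381, 355 and 378 FPKM in WT, with no separation.

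Aldolase splits the 6-carbon sugar, and nearly all of its transcript was Aldoa, the muscle form. Aldoa stood at 3058, 2715, 2882 and 2602 FPKM in TG and at 2787, 3075, 2516 and 2631 FPKM in WT, overlapping groups at a log2 fold change of 0.04 (SE 0.12, edgeR, unadjusted p = 0.734). Aldoc, the brain form, was the member that missed the filter: its counts summed to 10 over the 4 TG and 4 over the 4 WT libraries, and the highest value was 0.35 FPKM, in TG replicate 2. Tpi1, triose phosphate isomerase, stood at 581 ± 46 FPKM in TG against 580 ± 76 in WT (SD, n = 4 each).

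The lower part of glycolysis, from Gapdh to Pkm, held the most abundant members. Gapdh, glyceraldehyde 3-phosphate dehydrogenase, stood at 6821, 6138, 6776 and 6019 FPKM in TG and at 6301, 6704, 6321 and 6084 FPKM in WT. These ranges coincide, with a log2 fold change of 0.03 (SE 0.11, edgeR, unadjusted p = 0.794), and Gapdh ranked above 99.9% of tested genes in FPKM. Pgk1, the first ATP-forming kinase, stood at 169 ± 19 and 178 ± 16 FPKM and Pkm, pyruvate kinase, at 745 ± 60 and 762 ± 45 (SD, n = 4 each). Gapdh, Aldoa, Eno1, Ldha, Pgk1 and Pgam1 have near-identical processed copies in the mouse genome, and their counts depend on how shared reads were divided.

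The mutase and enolase steps each pair a muscle form with a general form. Pgam2, the muscle mutase, stood at 772 ± 60 FPKM in TG against 776 ± 56 in WT, and Pgam1 at 86.4 ± 14.5 and 73.5 ± 7.7, which gives Pgam2 89.9% ± 2.1 and 91.3% ± 1.0 of the pair (SD, n = 4 each; exact permutation p = 0.286). Eno3, muscle enolase, stood at 851 ± 117 and 961 ± 122 FPKM. Eno1, the general enolase, stood at 240 FPKM in TG replicate 2 and between 133 and 169 FPKM elsewhere. The Eno3 share was 76.2% in TG replicate 2, between 84.1% and 86.2% in the other TG libraries and between 85.8% and 87.5% in WT (exact permutation p = 0.057, 0.129 after adjustment). The difference of -3.82 points became -1.59 without TG replicate 2.

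Lactate dehydrogenase of heart is rich in the B subunit, which favours lactate oxidation, while the A subunit dominates in skeletal muscle. Ldhb stood at 1245, 1175, 1240 and 1063 FPKM in TG and at 1329, 1371, 1266 and 1089 FPKM in WT, with overlap. Ldha stood at 550 ± 34 FPKM in TG against 556 ± 27 in WT, so Ldhb held 68.2% ± 0.9 and 69.4% ± 1.5 of the pair (SD, n = 4 each; exact permutation p = 0.229). Slc16a3, the lactate exporter MCT4 of glycolytic cells, was low at 1.99 ± 0.37 and 1.96 ± 0.20 FPKM.

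The pyruvate dehydrogenase complex commits pyruvate to the citrate cycle, and the kinase Pdk1 inhibits it. Pdhb, the beta subunit of its first component, stood at 412, 498, 430 and 408 FPKM in TG and at 401, 441, 485 and 451 FPKM in WT, without separation. Pdha1, the alpha subunit that carries the regulatory phosphorylation sites, stood at 236 ± 52 and 222 ± 47 FPKM, Dlat, the second component, at 91.5 ± 10.7 and 90.0 ± 19.5, and Pdk1 at 20.7 ± 3.6 and 19.9 ± 3.6 (SD, n = 4 each). None of these 4 had an unadjusted edgeR p under 0.05.

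Most of the members differed between the depth classes. In a fit with depth class and group together, 22 of the 32 members differed between shallower and deeper libraries (edgeR, Benjamini-Hochberg), where 32.2% of all genes did. Higher in the shallower libraries were 7 (17.8% of all genes): Ugp2, Gbe1, Pdha1, Pdk1, Dlat, Pfkp and Pfkfb2. Lower in the shallower libraries were 15 (14.4% of all genes), among them Slc2a4, Eno3, Pygm, Pygb, Pfkm, Pkm and Gapdh. The depth classes did not overlap in CPM for 20 members, beside 29.9% of all genes. Ugp2 is the clearest case: it stood at 42.8, 48.8, 45.2 and 44.3 FPKM in the deeper libraries TG 1, TG 3, WT 1 and WT 2, and at 86.6, 79.7, 92.8 and 125 FPKM in the shallower TG 2, TG 4, WT 3 and WT 4. Its log2 difference, shallower minus deeper, was 1.01 (SE 0.11, edgeR, adjusted p = 1.85e-04), and for Eno3 it was -0.36 (SE 0.08, adjusted p = 0.0046).

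The GC content of the transcripts, from the longest GENCODE M21 coding transcript of each gene, moved with this difference. The 7 members higher in the shallower libraries had 39.1% to 48.9% GC, and the 15 lower in them 51.5% to 57.7%. Across the 32 members Pearson's r between GC content and the log2 difference was -0.83 and Spearman's rho -0.59, and across 12025 tested genes -0.66 and -0.72. Genes of a library share its depth and preparation, so these are descriptions, and the part of GC content in the depth difference was not tested. The summed cardiomyocyte markers also differed by depth, at 91954 to 98790 CPM in deeper and 83774 to 88577 CPM in shallower libraries, and the 7 fibroblast markers stood at 1272 to 1357 and 1489 to 2012 CPM. Their part was not tested. Pygm and Pygb have 54.9% and 54.5% GC, with log2 differences by depth of -0.29 and -0.32. Pfkm, Pfkl and Pfkp have 54.7%, 57.1% and 48.9% GC, with -0.27, -0.23 and 0.30. The mean Pfkm share was 85.7% in deeper and 84.2% in shallower libraries, and the mean Pygm share 76.3% and 76.5%. The part of GC content in these shares was not tested. With the depth class as a covariate the unadjusted edgeR p was 2.97e-04 for Pygb, 0.0011 for Pfkl and 0.0035 for Pfkfb1, at adjusted p values of 0.0991, 0.193 and 0.272, so none passed, beside 0.221% of all genes. In that fit 6 of 32 members had an unadjusted p under 0.05, beside 8.97% of all genes.

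**Figure D4:**
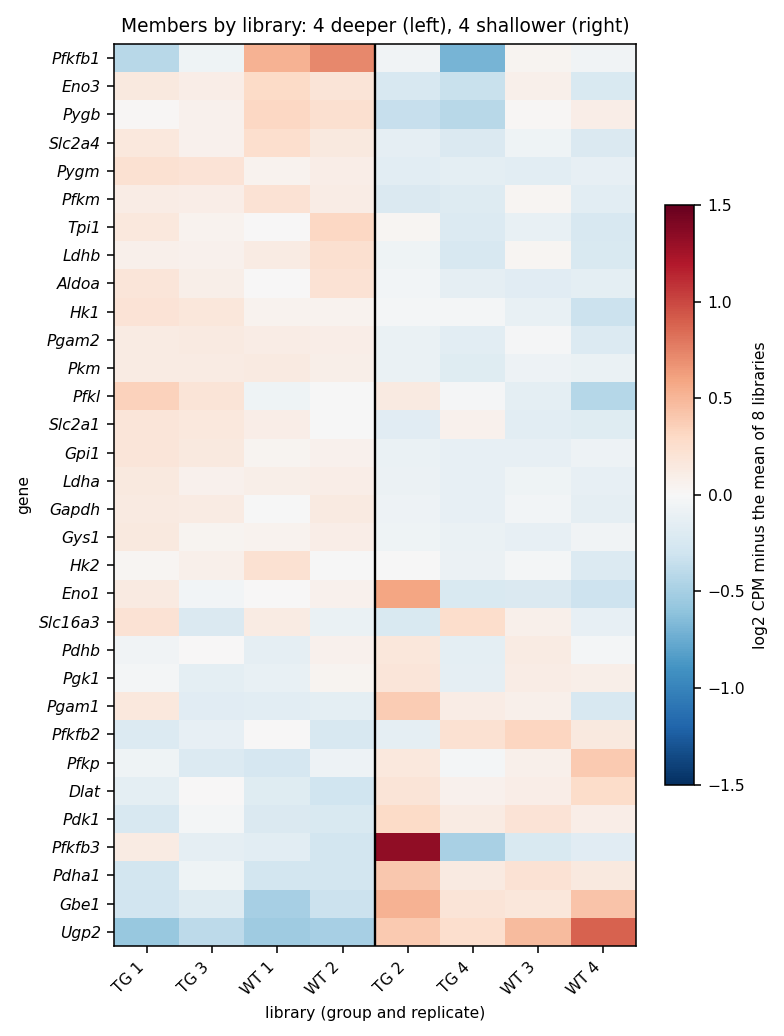
Level of the 32 tested genes in each library as log2 CPM minus the mean of the 8 libraries, with the 4 deeper libraries on the left and the 4 shallower on the right, sorted by the difference between them. The lowest rows (Ugp2, Gbe1, Pdha1) are high in the shallower libraries of both groups, most of the upper rows are low there, and Pfkfb3 and Eno1 are high in TG replicate 2.

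Markers of other cell types were read beside the isozymes. In TG replicate 2, 9 of 9 white and common fat markers and 5 of 7 brown fat markers were at their highest. The summed white and common fat markers stood at 452 to 1597 CPM in TG against 407 to 617 CPM in WT, with 1597 in TG replicate 2. Outside that library most of this sum was Fabp4, at 317 to 528 CPM. Car3, Cfd, Cidec, Adipoq and Plin1 were second highest in TG replicate 4, at 18.1, 15.4, 5.20, 3.12 and 1.93 CPM. Fabp4, Lipe and Retn were not second highest there, and Lep lay below the floor outside TG replicate 2. The brown fat sum stood at 1101 to 1412 CPM in TG against 1055 to 1741 CPM in WT. Most of the brown fat sum was Cox8b, at 924 to 1172 CPM in TG and 944 to 1667 CPM in WT, so the sum says little about brown fat. Otop1, another brown fat marker, stood at 7.93 CPM in TG replicate 2 and at most 0.139 CPM in the other libraries. TG replicate 2 was also highest for 5 of 6 atrial, 9 of 12 skeletal muscle and 5 of 9 nerve and Schwann cell markers. The part of fat or of these other tissues in its high Pfkfb3, Eno1, Aldoc and Pygl was not tested, and within that library they cannot be told apart. Values without that library, which still hold TG replicate 4, are given for Pfkfb3, the Eno3 share and Pygl. The Pygm share in TG replicate 2 was 78.7%, inside the range of the other TG libraries, and the TG minus WT difference of that share was 5.02 points without the library. Macrophage markers (8) summed to 395 to 641 CPM in TG against 581 to 687 CPM in WT, and nerve and Schwann cell markers (9) to 31.6 to 42.5 and 28.7 to 37.7 CPM. Of the macrophage markers 7 of 8 had log2 fold changes below 0, with a median of -0.30 (edgeR). Among these 8, 2 had an unadjusted edgeR p under 0.05, both lower in TG, beside 1.96% of all genes. So had 2 of 3 white and common fat markers tested and 1 of 4 brown fat markers, all higher in TG, beside 1.53% of all genes. Of 6 nerve and Schwann cell markers tested, 1 was lower in TG at that level. The 6 atrial markers summed to 893 CPM in TG replicate 2, to 258 CPM in replicate 4, to 63.7 and 76.7 in the other TG libraries, and to 149 to 270 CPM in WT. Nppa alone gave 143 to 219 CPM of the WT sums. Myl7 stood at 2.87, 203, 1.81 and 46.8 CPM in TG replicates 1 to 4 and at 1.35 to 18.8 CPM in WT. Of 5 atrial markers tested 4 had log2 fold changes above 0 (median 2.37, edgeR), and 3 had an unadjusted edgeR p under 0.05, beside 3.49% of all genes. In the deeper libraries alone, where Sln was not tested, Myl7, Myl4 and Dkk3 were lower in TG (-2.15, -2.22 and -1.34). In the shallower ones alone they were higher (4.18, 3.57 and 2.69), and without TG replicate 2 they gave 0.96, 0.61 and 1.31. Nppa stood at 66.2, 324, 56.7 and 90.2 CPM in TG replicates 1 to 4. Its log2 fold change was -0.38, and -1.29 without TG replicate 2. The ranges of these lists overlap, and in the fit on group alone none of the 11 marker lists held a gene past the threshold. In the deeper libraries alone Nppa passed (log2 fold change -1.44, edgeR, adjusted p = 5.84e-05), as 59 of 12754 genes did. With the depth class as a covariate the brown fat marker Dio2 passed (1.70, edgeR, adjusted p = 0.0449), as 0.221% of all genes did. The part of other cells in the Pygb and Pfkl shares was not tested. In whole heart fewer cells of a type and less RNA per cell cannot be told apart. The skeletal muscle list, with Myf6 not listed in any library, summed to at most 15.2 CPM.

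The remaining genes of the pathway were taken from 6 lists of 84 genes, of which 79 were listed in the files and 72 passed the filter. Of these 0 passed the threshold in edgeR or DESeq2, and 4 had an unadjusted p under 0.05, beside 3.49% of all genes. The glycogen list (25 genes, 23 tested, median log2 fold change 0.01) held all 4. Pygl, liver phosphorylase, had 4.31, 28.1, 4.73 and 6.54 CPM in TG replicates 1 to 4, against 2.83, 2.73, 3.16 and 3.06 CPM in WT replicates 1 to 4, without overlap and with TG replicate 2 far above the rest. Its log2 fold change of 1.86 (SE 0.56, edgeR, unadjusted p = 0.0053, adjusted p = 0.978) became 0.81 without that library. Ppp1r3d, which targets a phosphatase to glycogen, had 26.6, 33.5, 30.9 and 25.4 CPM in TG replicates 1 to 4, against 22.8, 21.6, 22.1 and 23.2 CPM in WT replicates 1 to 4, again without overlap (log2 fold change 0.37, SE 0.12, edgeR, unadjusted p = 0.011). Phkg1, the catalytic subunit of muscle phosphorylase kinase, which activates phosphorylase, had 22.6, 21.3, 24.5 and 20.7 CPM in TG replicates 1 to 4, against 33.9, 27.7, 23.9 and 27.4 CPM in WT replicates 1 to 4 (log2 fold change -0.34, SE 0.13, edgeR, unadjusted p = 0.024), with WT replicate 3 inside the TG range. Nhlrc1, the ubiquitin ligase malin that acts on glycogen regulators, was the last of the 4, at 7.31 ± 1.76 CPM in TG against 10.1 ± 1.8 CPM in WT (SD, n = 4 each).

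In the other 5 lists no gene had an unadjusted edgeR p under 0.05. The medians were 0.14 for other glycolytic and gluconeogenic enzymes (12 tested), 0.06 for the pentose phosphate and hexosamine branches (16), 0.02 for the regulators of pyruvate dehydrogenase (8), 0.00 for glucose transport and its control (7) and -0.11 for lactate and pyruvate transport (6). Tigar, a fructose 2,6-bisphosphatase that p53 induces, stood at 87.2 ± 2.7 CPM in TG against 77.6 ± 4.0 CPM in WT (SD, n = 4 each) without overlap, at an unadjusted edgeR p of 0.094. Among the 72 genes 3 did not overlap in CPM (Pygl, Ppp1r3d and Tigar, all higher in TG), beside 2.53% of all genes (1.23% higher and 1.29% lower in TG). Of the 32 tested members 0 were free of overlap on that scale, and 3 were in FPKM.

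Pdk4, the pyruvate dehydrogenase kinase that fasting and fatty acids induce, had 227, 222, 214 and 170 CPM in TG replicates 1 to 4, against 74.7, 195, 225 and 551 CPM in WT replicates 1 to 4. The WT libraries spread over a wider range than the TG libraries, which all lie inside it, and the log2 fold change was -0.33 (SE 0.41, edgeR, unadjusted p = 0.438). Without WT replicate 4 it was 0.34. Txnip, a glucose-induced brake on glucose uptake, stood at 671 ± 119 CPM in TG against 608 ± 163 CPM in WT (SD, n = 4 each). Its log2 fold change was 0.14 (SE 0.18) in all libraries, 0.56 in the deeper ones alone (edgeR, unadjusted p = 3.81e-04, adjusted p = 0.0656) and -0.24 in the shallower ones alone, and whether these differ was not tested. Pdk4 likewise gave 0.71 in deeper and -0.98 in shallower libraries (edgeR, adjusted p = 0.397 and 0.792). Slc2a12, another insulin-sensitive transporter, stood at 7.04 ± 1.93 and 8.53 ± 0.41 (SD, n = 4 each). The members together made up 2.99% ± 0.18 of the summed FPKM of all genes in TG against 2.89% ± 0.06 in WT (SD, n = 4 each), with ranges that overlap.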

How the data were processed

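Per the file headers, each deposited table gives, for each gene by NCBI Gene number, an expected count and an FPKM value. The expected counts are the authors' estimates of reads or fragments per gene, not normalized, and the deposited FPKM values are per kilobase and per 1000000 fragments. The submitters' processing notes name Bowtie2 and the build mm8, giving no role for either; the counting program and the use of strand are not given in the sources used here. Genes not listed in a library were taken as 0. Symbols were matched by number in the NCBI table of GRCm38.p6 (18174 of 18215), whose build differs from mm8, so gene coordinates are not given; promoter windows are on GRCm38.p6.

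Expected counts were rounded, filtered with filterByExpr (minimum count 10, minimum total 15), scaled by TMM and fitted with edgeR 4.0.16 in R 4.3.3 on group alone (two-sided; SE is the absolute log2 fold change over the square root of F). Alternatives used DESeq2 1.42.0 and limma 3.58.1. Depth classes split the libraries at the midpoint of the lowest and highest total. In simulated counts for TG against WT over 12670 genes (3 runs of 200 changed genes), the share of true changes that edgeR called was 26.9% for genes changed 1.5-fold, 78.1% for 2-fold and 96.0% for 4-fold, with 31 false calls among 432. The simulated counts were drawn gene by gene and held no shared shift between depth classes, where 32.2% of real genes differed. Isozyme shares were tested with the exact permutation test over 70 regroupings. No pair of libraries of a group agreed within sampling noise (smallest chi-square per degree of freedom 4.45). The members, pathway lists, 11 marker lists, depth classes and tests were chosen with earlier results of these data known. Named genes were all members, with values per library for the most abundant of each role and those with an unadjusted p under 0.05, then up to 3 genes per pathway list by p, with Pdk4, Txnip and Slc2a12; Pfkfb3, Eno1, Ugp2, Nhlrc1 and Tigar were described after their values were seen.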

Additional observations from a re-analysis of the deposited data

Results flagged for a closer look

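In 84 groups of 4 libraries (33 genes in CPM and 9 isozyme shares, in TG and in WT) 2 libraries stood far from the other 3 of their group by Dixon's test, where chance flags about 5% of groups. Pfkfb2, at 71.4 CPM, was high in TG replicate 4, the other TG values running from 53.0 to 56.0 CPM. Aldoc made up 0.0129% of the aldolase FPKM in TG replicate 2 and between 0.00163% and 0.00347% in the other TG libraries, at counts near the floor of 3 per library.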

How the results depend on the processing

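No member and no other pathway gene passed the threshold under any of the 20 alternatives in which it was tested. Slc16a3 was tested in 19, as a stricter filter leaves it out, and Aldoc only with no filter. No isozyme share passed after adjustment under any alternative run, which says little. With 9 families at least 6 would have to reach the smallest possible exact permutation p of 0.0286 for any to pass. Of those alternatives 2 (Pygl in its family, Pfkl for Pfkm) were chosen after seeing the data. Pfkl, Pfkfb1 and Pygb kept their direction in all 20, with log2 fold changes of 0.24 to 0.38, -0.85 to -0.34 and -0.44 to -0.23. Over all genes edgeR called 2; the count was 15 with DESeq2, 0 without the Carns1 counts, 4 with no filter, 1 when limma was run on FPKM in log2 with a pseudocount of either 1 or 0.1, 28 with the depth class as a covariate, 59 in the deeper and 4 in the shallower libraries only, and 1 to 3 when a single library was left out. Exact tests of 4 against 3 libraries cannot go below p = 0.029, nor sign-flip tests of 4 pairs below 0.125, so the latter cannot pass. With the replicate number as a block (replicate block) 1 gene and no member was called. Deviations of same-numbered libraries from their group means had correlations of 0.24, -0.28, -0.18 and 0.40 for replicates 1 to 4. Of 8 libraries 3 correlated best with their own number. The 2 libraries of replicates 1 and 4 share a depth class, and those of replicates 2 and 3 do not. Depth was not removed from these deviations, so the values cannot decide whether the numbers pair the libraries. In the simulations, which held no shift between depth classes, 26.9% of 1.5-fold changes were recovered. Smaller changes, such as those of Pfkl and Pygb, were not simulated.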
